A study of Mus musculus with 16 samples.

Results

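A set of 90 genes was lower after 4 h of ERK activation in mouse embryonic stem cells and had regained most of that loss 2 h after MEK inhibition. The 90 were chosen on 3 measured conditions from 12215 tested genes (52636 gene identifiers in all). These were a mean of at least 5 CPM at 0h (CPM, a library-scaled read count), a fall at 4h of at least 0.6 on the log2(mean CPM + 1) scale, and a rise from 4h to rev of at least 0.7 times that fall. Libraries were brought to a common size with edgeR's TMM factors. Of 96 genes that met these values, 6 were left out by name. Level and fall alone were met by 438 genes kept by name, of which 90 were restored, 208 regained between 0.3 and 0.7 of the fall, and 140 regained at most 0.3. Because measured values chose the members, the changes from 0h to 4h and from 4h to rev are descriptions and carry no test.

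The cells were CRAFR26 mouse embryonic stem cells, which carry a c-RAF kinase construct that 4-hydroxytamoxifen (4OHT) switches on. They were grown on gelatine in N2B27 medium with the GSK3 inhibitor CHIR99021 (3 µM), LIF (1000 U/ml) and the MEK inhibitor PD0325901 (PD03, 1 µM), and for the last 48 h with the FGF receptor inhibitor PD173074 (PD17, 250 nM) in place of PD03. The groups were cells without 4OHT (0h), cells given 250 nM 4OHT for 2 h (2h) or 4 h (4h), and cells given 4OHT for 4 h and then a MEK inhibitor for a further 2 h (rev). Each group held 4 samples, 2 of clone 4 and 2 of clone 8, so all 16 samples share the construct, the 48 h in PD17 and 1 parental line. The labels do not say whether the 2 samples of a clone were grown apart, so p-values measure the spread between these samples. No culture received the vehicle of 4OHT and none was kept for the further 2 h without the MEK inhibitor, so the effects of vehicle and of time in rev cannot be told apart from those of the kinase and of MEK inhibition.

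ERK is the last kinase of the RAF, MEK and ERK cascade, through which FGF receptors signal in embryonic stem cells. FGF4, made by the cells themselves, drives this cascade and primes them to leave naive pluripotency, and MEK inhibitors are used to hold them there. Active ERK is best known for inducing feedback and immediate-early genes, while other genes lose expression in the same hours.

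Total counts per library ran from 2172651 to 12680303 (median 6502783), and 3 counts, taken as the detection floor, were worth 0.213 to 1.35 CPM, which covers counting error only. Of these counts, the 8 most abundant gene models took 60.7% ± 2.39 in the 0h libraries (mean ± SD, n = 4 in each group), 58.5% ± 4.05 in those of 2h, 54.1% ± 9.31 in those of 4h and 65.9% ± 10.6 in the rev libraries, with 1 library apart at 80.4% (rev, clone 8 replicate 2, TMM factor 0.463). The ERK feedback and immediate-early list checked the treatment: all of its 19 tested genes rose from 0h to 4h, 17 fell again from 4h to rev, and none is a member. Embryonic stem cell markers summed to 1688 to 2179 CPM in every library, while single markers moved in both directions. At 0h, 4h and rev mean Tfcp2l1, the most abundant, was at 704, 569 and 715 CPM, and the member Fgf4 at 130, 62.6 and 166. Mean Utf1 was at 18.5, 72.2 and 36.8 CPM, and Lin28a at 5.12, 30.9 and 15.2. Fibroblast markers summed to 2.44 to 8.56 CPM with Postn and Dcn at 0 throughout, while primitive endoderm markers summed to 43.2 to 71.6 CPM at 0h, 36.5 to 56.4 at 4h and 49.2 to 75.3 in rev (means of Lama1, the most abundant, 49.8, 36.6 and 52.8). Trophectoderm markers summed to 41.5 to 53.9 CPM at 0h, 36.0 to 48.4 at 4h and 40.4 to 52.8 in rev, with mean Tfap2c, the most abundant, at 38.9, 23.8 and 32.6. Other markers of that list rose at 4h, among them Eomes (means 3.85, 7.46 and 5.10 CPM), Cdx2 (1.32, 4.73 and 3.79) and Gata3 (0.902, 2.06 and 3.63). Krt8 did not (1.32, 1.14 and 2.04). Markers of 2-cell-like cells summed to 3.53 to 7.06 CPM at 0h, 11.96 to 13.9 at 4h and 5.30 to 13.7 in rev, and those of primed epiblast to 6.20 to 9.85, 14.2 to 30.8 and 9.01 to 11.3 CPM. The 5 neural markers, which include the member Tubb3, summed to 53.5 to 70.1 CPM at 0h, 40.8 to 50.2 at 4h and 63.6 to 70.8 in rev. Mean Tubb3, which the rule chose for such a course, was at 29.2, 15.1 and 26.6 CPM, and mean Nes at 30.98, 26.2 and 33.8 CPM. The less abundant Pax6 and Sox1 went the other way, with higher means at 4h and in rev than at 0h, and Neurod1 was barely detected. The lower sum at 4h thus came from Tubb3 and Nes and was not a course of the whole list. The part of these lists in the results was not tested. Fewer cells expressing a gene and less RNA per cell cannot be told apart in these bulk samples.

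The members had 0h means from 5.02 CPM (Kcp) to 130 CPM (Fgf4), a median of 10.9 CPM and 41 genes under 10 CPM. The median was 20.4 CPM over all genes of at least 5 CPM at 0h and 12.2 CPM over all tested genes. All but 3 are protein coding; the exceptions are the small nucleolar RNA Snord32a, the long non-coding RNA D430020J02Rik and the pseudogene Tmem181b-ps. The fall at 4h ranged from 0.60 to 1.49 on the log2(mean CPM + 1) scale by the rule (medians of all members -0.75 and of all tested genes -0.01), and 22 members fell by at least 1. Summed over the members, expression was 1596 to 1730 CPM in the 0h libraries, 1171 to 1207 at 2h, 856 to 972 at 4h and 1572 to 1655 in rev. The heatmap of members by library shows this course in the libraries of both clones.

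**Figure D1:**
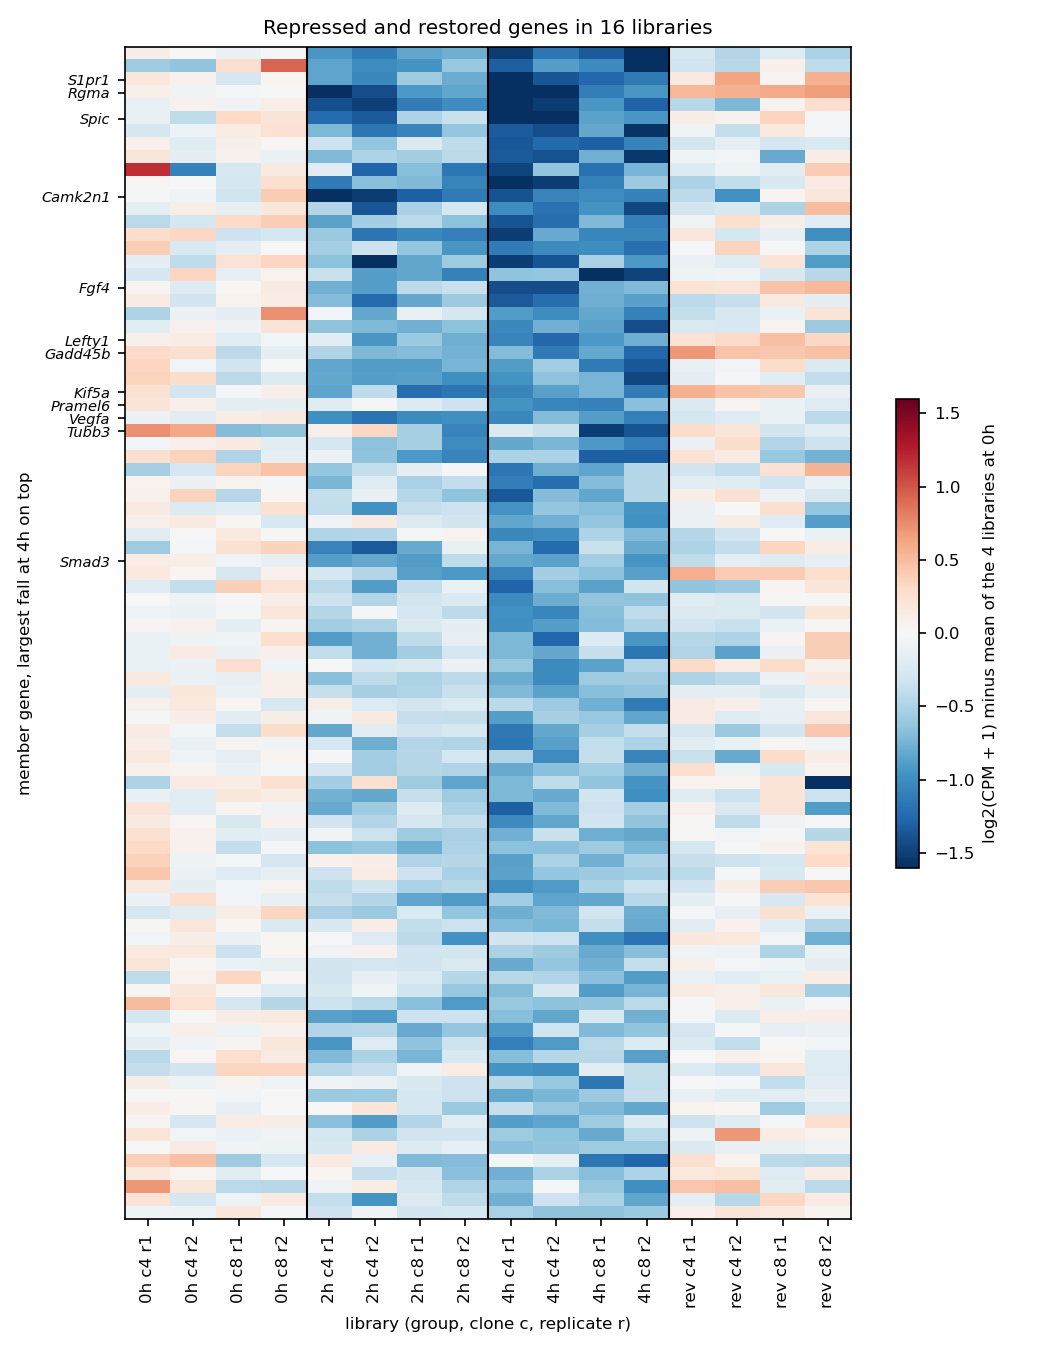
Log2(CPM + 1) of each of the 90 members (rows, largest 4h fall on top, with 12 of them labelled) in each of the 16 libraries (columns), minus the mean of the 4 libraries at 0h. Blue is below and red above the 0h mean; the members' median lay between -0.89 and -0.72 in the 4h libraries and between -0.11 and -0.05 in the rev libraries.

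RefSeq (GRCm38.p6) gave a promoter window, from 250 bases before to 50 bases after the start, for 68 of the 90 members. Where it lists several starts for a gene, as it does for 16 of the 68, the first listed was used. The 3 shown are that of Fgf4, the most abundant member (chr7:144861136-144861435, plus strand), and those of Atg16l2 (chr7:101302039-101302338, minus strand) and Pnpla3 (chr15:84167566-84167865, plus strand), which have large falls and hold a cAMP response element (CRE) close to the start. Capitals mark the letters of the motifs searched, on either strand.
Fgf4: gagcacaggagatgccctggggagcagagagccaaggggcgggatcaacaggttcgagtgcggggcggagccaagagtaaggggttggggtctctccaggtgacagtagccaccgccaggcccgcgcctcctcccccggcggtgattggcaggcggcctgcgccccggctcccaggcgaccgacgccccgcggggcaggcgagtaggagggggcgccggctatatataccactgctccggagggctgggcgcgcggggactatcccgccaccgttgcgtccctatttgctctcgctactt
Atg16l2: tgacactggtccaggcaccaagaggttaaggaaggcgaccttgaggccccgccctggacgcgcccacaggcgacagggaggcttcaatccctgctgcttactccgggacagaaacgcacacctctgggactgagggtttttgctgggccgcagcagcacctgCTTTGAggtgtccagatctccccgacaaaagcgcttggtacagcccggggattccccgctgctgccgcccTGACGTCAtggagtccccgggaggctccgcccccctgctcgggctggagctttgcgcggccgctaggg
Pnpla3: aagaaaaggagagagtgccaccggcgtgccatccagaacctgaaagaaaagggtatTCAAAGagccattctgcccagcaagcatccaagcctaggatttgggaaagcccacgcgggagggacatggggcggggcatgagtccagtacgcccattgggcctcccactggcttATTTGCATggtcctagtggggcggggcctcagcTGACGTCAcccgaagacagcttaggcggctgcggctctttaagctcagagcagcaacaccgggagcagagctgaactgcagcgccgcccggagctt

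The Fgf4 window holds none of the 9 motifs; it lies inside the longer GENCODE model of the gene, which starts at 144847367. The CRE letters TGACGTCA stand from position -18 to -11 in Atg16l2 and from -46 to -39 in Pnpla3, counted from the RefSeq start. The same 8 letters occur from -24 to -17 in Ube2h, a ubiquitin-conjugating enzyme, so that 3 of 68 member windows (4.41%) held them, against 3.37% of 9234 windows of tested genes. The TCF/LEF letters CTTTGA were in 16.2% of member windows and 11.6% of all, and the STAT letters TTCCNGGAA in 2.94% and 1.27%. Lower shares than the background were found for the ETS letters CCGGAAGT (4.41% against 8.86%) and the E-box CACGTG (5.88% against 10.8%), and the shares were also low in the genes not restored (3.54% and 7.08%) and in those between (3.03% and 6.67%). The AP-1 letters TGANTCA (4.41% and 4.41%), the Esrrb letters AAGGTCA (4.41% and 3.01%), the Klf letters GGGTGTG (8.82% and 8.10%) and the Oct letters ATGCAAAT (1.47% and 1.41%) completed the search. With 1 to 11 member windows behind each share, these are descriptions of letters, and no motif was tested.

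At 2h 64 of the 90 members were lower than at 0h and none was higher, against 9.68% lower and 11.4% higher among all 12215 tested genes (edgeR quasi-likelihood test, Benjamini-Hochberg adjusted p under 0.05). All 90 log2 fold changes were negative, with a median of -0.55 against -0.02 over all tested genes. In 48 members every 2h library was below every 0h library, which held for 6.62% of all tested genes. The 0h libraries also chose the members, so this count is not independent of the choice. Among the 140 repressed genes that were not restored, 89 fell at 2h, and among the 208 between, 157 did, so the early fall was seen in all 3 sets and no difference between them was tested.

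From 2h to 4h 24 members fell further and none rose, against 3.52% that fell and 3.80% that rose among all tested genes, in a test that shares the 4h libraries with the choice. Of the members 53 passed the test at 2h alone, 11 in both steps, 13 from 2h to 4h alone, and 13 in neither although their 4h level had met the rule. The median member had 0.606 of its 4h fall in place at 2h (25th and 75th percentiles 0.436 and 0.790), and the median of the genes not restored was 0.588. Camk2n1, Vegfa and Gjb5, a gap junction protein, were at or below their 4h level already at 2h. In contrast 11 members, among them Elobl, Calcoco2, Pramel6, Tiam2 and Rhpn2, had less than 0.3 of their fall by then. The plot of the 2 steps shows these genes at its opposite ends.

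**Figure D2:**
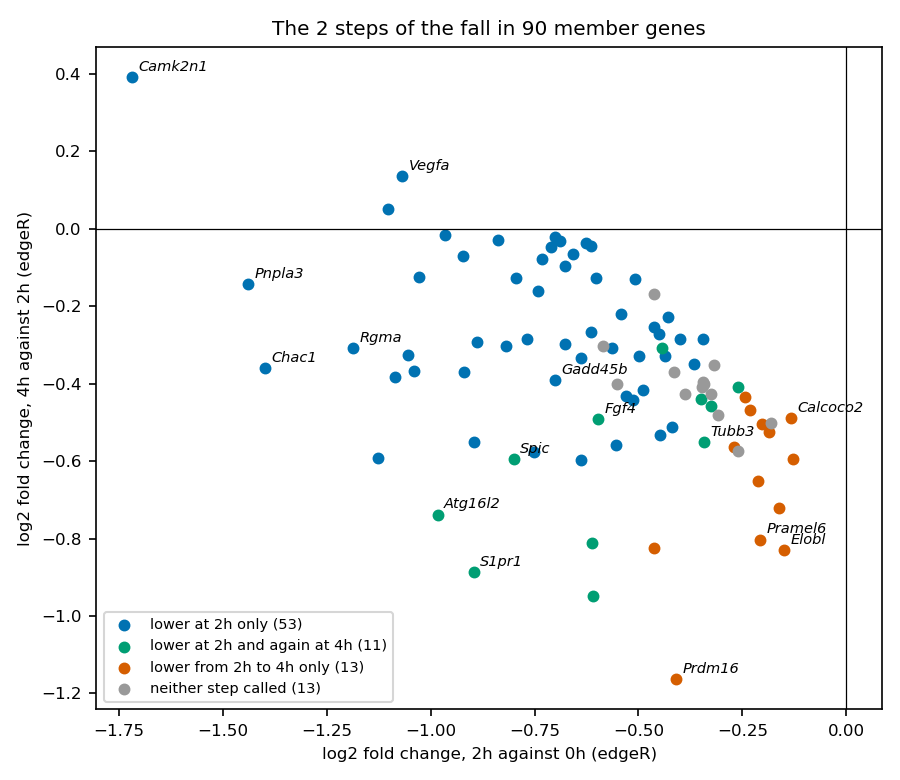
Log2 fold change of each of the 90 members from 0h to 2h (x axis) and from 2h to 4h (y axis), from edgeR, coloured by which step passed an adjusted p of 0.05 (53 members the first only, 11 both, 13 the second only, 13 neither). Camk2n1 lies at -1.72 and 0.39, and Prdm16 at -0.41 and -1.16.

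The members were sorted into 8 roles after they were known. Among the secreted ligands and extracellular regulators (7 members), Fgf4, the FGF ligand of naive cells, was the most abundant (ENSMUSG00000050917, chromosome 7, 144847367 to 144865243, as are all positions of genes here in GENCODE M21 on GRCm38). At 0h its CPM was 133 and 113 in clone 4 and 132 and 142 in clone 8, and at 2h it was 75.5, 70.1, 96.7 and 101 in the same order. At 4h the 4 libraries gave 47.6, 48.0, 75.6 and 79.2 CPM, and in rev 151, 149, 178 and 187. No 2h or 4h library reached any 0h library, and every rev library was above every 0h library. The fall was already present at 2h (log2 fold change -0.60, SE 0.08, adjusted p 1.7e-06 in edgeR's quasi-likelihood test, lower in 4 of 4 libraries), and it went on from 2h to 4h (log2 fold change -0.49, SE 0.09, adjusted p 2.2e-04). Both tests share libraries with the choice of members, the 0h libraries in the first and the 4h libraries in the second. The same holds for these tests in every member named below.

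Vegfa, the vascular endothelial growth factor (chromosome 17, 46016993 to 46032369), had its whole fall by 2h. Its CPM was 43.7, 41.6, 50.8 and 52.0 at 0h, 23.2, 20.1, 22.6 and 23.2 at 2h, 22.4, 28.5, 25.1 and 21.3 at 4h, and 38.4, 40.6, 43.6 and 34.7 in rev. The 2h and 4h values overlapped and lay below every 0h and rev value (2h against 0h, log2 fold change -1.07, SE 0.09, edgeR adjusted p 8.5e-11). Rgma, a membrane-anchored co-receptor for BMP ligands (chromosome 7, 73375509 to 73419899), had 21.7, 19.5, 20.1 and 20.3 CPM at 0h, 5.83, 7.01, 10.3 and 11.0 at 2h, and 5.39, 5.61, 8.92 and 10.3 at 4h. In rev it stood at 30.1, 30.6, 31.7 and 32.9 CPM, above every 0h library. Its 2h log2 fold change was -1.19 (SE 0.13, edgeR adjusted p 2.8e-08), and an antisense gene overlaps its exons.

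Lefty1, a secreted inhibitor of Nodal, was near the level at which few counts set the precision, with 8.96, 9.25, 7.40 and 8.12 CPM at 0h and 3.52, 2.92, 3.99 and 4.47 CPM at 4h. It reached 10.02, 10.6, 12.1 and 10.8 CPM in rev, again above every 0h library. At 2h it had 7.38, 3.94, 5.24 and 4.47 CPM (log2 fold change -0.64, SE 0.17, edgeR adjusted p 0.0052). Kcp, a secreted modulator of BMP signalling, also fell at 2h (log2 fold change -1.03, edgeR adjusted p 7.9e-04), as did Ism2, a secreted isthmin (-0.42, adjusted p 0.036). Bmp7, a BMP ligand, did not pass the test at 2h (log2 fold change -0.33, SE 0.18, adjusted p 0.21). In all, 6 of the 7 ligands and regulators fell at 2h.

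**Figure D3:**
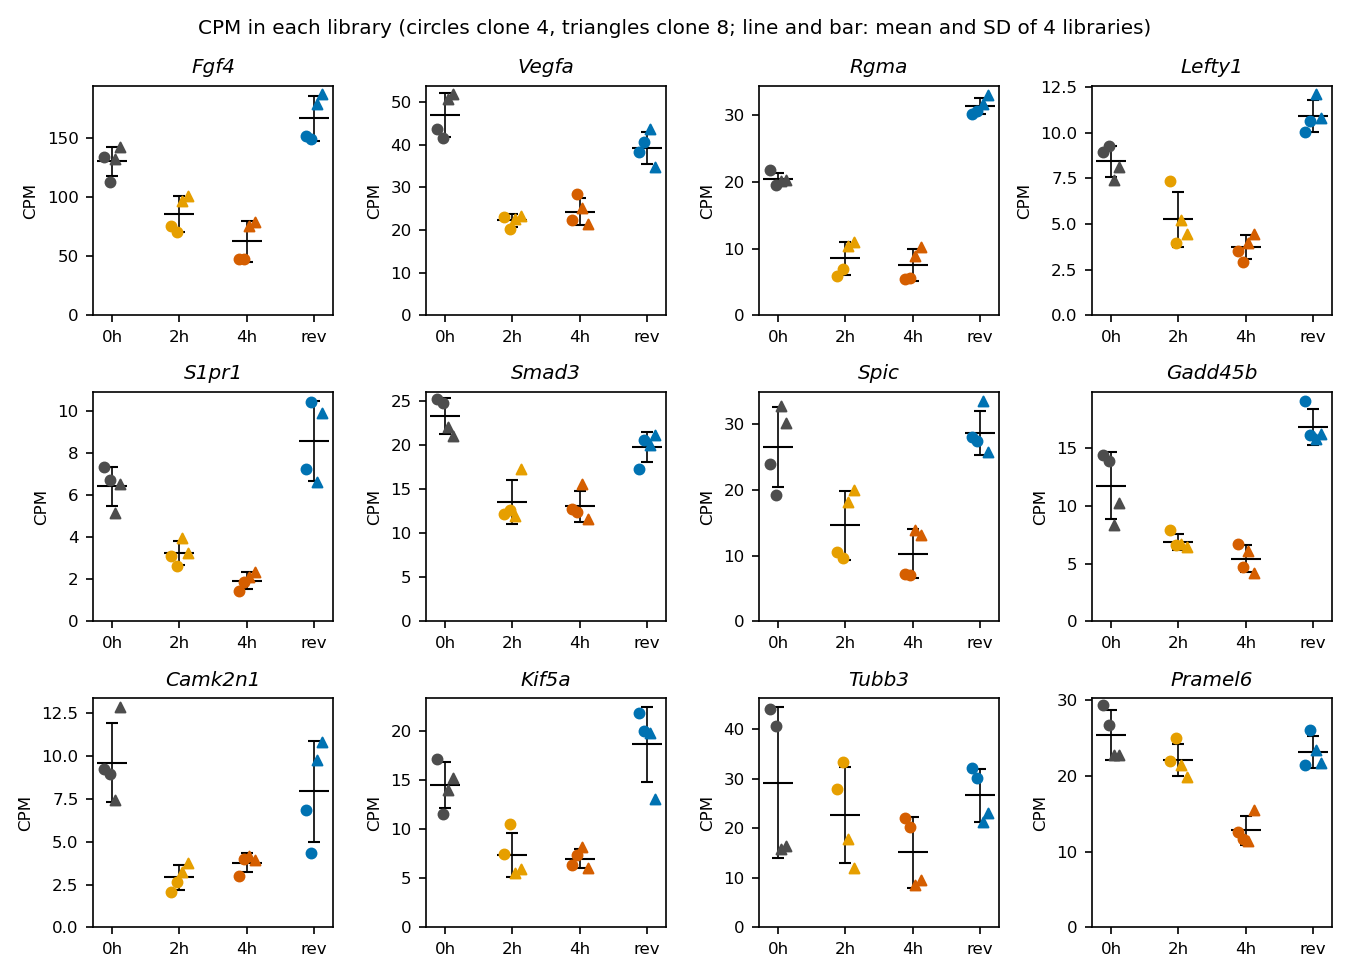
CPM of 12 members in each of the 16 libraries by group (circles clone 4, triangles clone 8), with the mean and SD of the 4 libraries of a group as line and bar. Fgf4, Rgma, Lefty1 and Gadd45b stand above their 0h values in every rev library, while Tubb3 separates by clone at 0h (44.0 and 40.7 against 15.8 and 16.4 CPM).

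Of the 12 receptors, adhesion molecules and channels, 11 fell at 2h. S1pr1, the receptor for sphingosine 1-phosphate, had 7.33, 6.71, 5.15 and 6.52 CPM at 0h, 3.11, 2.63, 3.97 and 3.27 at 2h, 1.43, 1.87, 2.09 and 2.37 at 4h, and 7.25, 10.4, 6.63 and 9.92 in rev. Its 4 groups overlap only between 0h and rev, and both steps of the fall passed the test (2h against 0h, log2 fold change -0.90, SE 0.19, edgeR adjusted p 8.0e-04; 4h against 2h, -0.89, SE 0.25, adjusted p 0.026). Ackr3, an atypical chemokine receptor, fell by 1.05 at 2h on the log2 scale, and Icam1, a cell adhesion molecule, by 0.61. Ryr1, an intracellular calcium release channel, had the highest restoration of all members, 1.52 times its fall, with 14.4 to 18.2 CPM in rev against 9.81 to 13.3 at 0h. Trpm4, a calcium-activated cation channel, fell at 2h (log2 fold change -0.60, SE 0.14, edgeR adjusted p 0.0019). Tmem175, a lysosomal ion channel, was the member of this group that did not pass (-0.41, adjusted p 0.12).

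Among 12 intracellular signalling genes, 9 fell at 2h. Smad3, which carries Nodal and activin signals to the nucleus, had 25.3, 24.8, 22.03 and 21.1 CPM at 0h, 12.2, 12.7, 12 and 17.3 at 2h, 12.8, 12.4, 15.6 and 11.6 at 4h, and 17.3, 20.6, 20.1 and 21.2 in rev. All 2h and 4h values lay under all 0h values, and most of the fall was in place by 2h (log2 fold change -0.73, SE 0.12, edgeR adjusted p 2.6e-05). Camk2n1, an inhibitor of the kinase CaMKII (chromosome 4, 138454314 to 138460123), had the largest 2h change of all members, from 9.23, 8.95, 7.40 and 12.8 CPM to 2.07, 2.63, 3.21 and 3.76 (log2 fold change -1.72, SE 0.19, edgeR adjusted p 2.5e-08). It then stood at 2.97, 3.97, 4.18 and 3.95 CPM at 4h, with no detected difference from 2h (log2 fold change 0.39, SE 0.24, adjusted p 0.36). Arhgef19, an exchange factor for small GTPases, fell by 1.13 at 2h, and Srcin1, an inhibitor of Src, by 0.92. Tiam2, a Rac exchange factor, and Rhpn2 had the other order, and neither passed at 2h (log2 fold changes -0.16 and -0.13). Leaving out single libraries gave 2h values from -0.24 to -0.05 and from -0.19 to -0.06. Both genes fell from 2h to 4h (-0.72 and -0.59, edgeR adjusted p 0.0075 and 1.7e-04), in a test that shares the 4h libraries with the choice.

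Of 12 regulators of transcription, chromatin and RNA, 10 fell at 2h. Spic, an ETS-family transcription factor of naive cells, had 23.9, 19.2, 32.6 and 30.04 CPM at 0h, 10.5, 9.63, 18.2 and 19.95 at 2h, 7.15, 7.01, 13.9 and 13.2 at 4h, and 28.0, 27.4, 33.5 and 25.7 in rev. Clone 8 lay above clone 4 at 0h, 2h and 4h, so 0h and 2h values overlapped across clones and not within them, and both steps passed the test (log2 fold changes -0.80, SE 0.12, edgeR adjusted p 6.6e-06, and -0.60, SE 0.14, adjusted p 0.0069). Prdm16, a PR-domain regulator, fell mostly after 2h: it had 5.67 to 7.08 CPM at 0h, 3.94 to 5.49 at 2h, 1.98 to 2.63 at 4h and 5.22 to 5.86 in rev. Its first step did not pass the test (log2 fold change -0.41, SE 0.16, adjusted p 0.061), and its second was the largest of any member (-1.16, SE 0.20, edgeR adjusted p 1.5e-04). The test of the second step shares the 4h libraries with the choice, here and for Smc1b below. Mycl, a Myc family factor, and Tob1, an antiproliferative protein that binds the deadenylase complex, fell at 2h by 0.44 and 0.46 on the log2 scale. Smc1b, a cohesin subunit of meiosis, passed the test from 2h to 4h (log2 fold change -0.47, edgeR adjusted p 0.035) and not at 2h (-0.23, adjusted p 0.20).

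Of 10 genes of the cytoskeleton, motors and vesicle traffic, 5 fell at 2h and 5 from 2h to 4h. Kif5a, a kinesin heavy chain, had 17.1, 11.5, 13.99 and 15.2 CPM at 0h, 7.51, 10.5, 5.58 and 5.89 at 2h, 6.38, 7.36, 8.16 and 6.05 at 4h, and 21.7, 19.98, 19.7 and 13.1 in rev. The 2h and 4h libraries overlapped, and all lay under the 0h libraries (2h against 0h, log2 fold change -1.10, SE 0.16, edgeR adjusted p 2.0e-06). Rab11fip1 and Rab11fip4, effectors of the recycling GTPase Rab11, were among the 6 most abundant members and fell in both steps (log2 fold changes -0.35 and -0.44 at 2h, then -0.44 and -0.31). Tubb3, a beta-tubulin typical of neurons, had 44.0, 40.7, 15.8 and 16.4 CPM at 0h and 22.1, 20.3, 8.54 and 9.47 at 4h, so the values overlapped across clones and not within them. Its fall at 2h was at the edge of the test (log2 fold change -0.34, SE 0.13, edgeR adjusted p 0.0496) and was lost in most of the other settings tried.

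Of 8 genes of stress responses, autophagy and protein turnover, 5 fell at 2h. Gadd45b, a stress-induced regulator of growth arrest, had 14.4, 13.9, 8.36 and 10.3 CPM at 0h, 7.90, 6.57, 6.67 and 6.39 at 2h, 6.71, 4.67, 6.08 and 4.21 at 4h, and 19.1, 16.1, 15.7 and 16.2 in rev. Every 2h and 4h library was below and every rev library above the 0h libraries (2h against 0h, log2 fold change -0.70, SE 0.15, edgeR adjusted p 5.9e-04). Atg16l2, a relative of the autophagy protein ATG16L1, had the largest 4h fall of all members, from 8.20 to 9.51 CPM at 0h to 3.50 to 4.69 at 2h and 1.32 to 3.39 at 4h, and stood at 5.86 to 7.46 CPM in rev, still below every 0h library. Chac1, an enzyme that breaks down glutathione, was spread over 2.54 to 9.51 CPM at 0h, and its 2h log2 fold change of -1.40 went to -0.88 without 1 library (0h, clone 8 replicate 2). Calcoco2, an autophagy receptor, had 109 to 125 CPM at 0h and 96.6 to 126 at 2h (log2 fold change -0.13, adjusted p 0.22), and then fell to 71.8 to 77.4 CPM at 4h (4h against 2h, -0.49, SE 0.08, edgeR adjusted p 5.4e-05). That last test shares the 4h libraries with the choice.

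Of 12 genes of metabolism and transport, 8 fell at 2h. Pnpla3, a lipase of lipid droplets, went from 8.42 to 9.94 CPM at 0h to 2.63 to 4.12 at 2h (log2 fold change -1.44, SE 0.17, edgeR adjusted p 7.8e-08) and was at 2.31 to 4.37 CPM at 4h and 5.21 to 11.3 in rev. Sirt3, a mitochondrial deacetylase, had 3.26, 5.52, 5.47 and 6.09 CPM at 0h and 3.11, 6.13, 3.04 and 2.34 at 2h, so that clone 8 was lower and clone 4 overlapped. It is counted among those that fell (log2 fold change -0.79, SE 0.25, edgeR adjusted p 0.019), while within clone 4 the change was -0.27 (SE 0.39, adjusted p 0.77). Its rev libraries gave 5.22, 5.21, 5.97 and 0.901 CPM, the last from the library with the highest share of abundant models and under its floor of 1.35 CPM. The remaining 17 members, of other or less well described function, had 10 that fell at 2h. In that group Pramel6, a PRAME family member of early embryos, had 22.7 to 29.3 CPM at 0h and 19.9 to 24.96 at 2h, and then fell to 11.4 to 15.5 CPM at 4h (4h against 2h, log2 fold change -0.80, SE 0.11, edgeR adjusted p 7.0e-06). This test, too, shares the 4h libraries with the choice.

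By the rule's own contrasts, given here as a description, all 90 members were called lower at 4h than at 0h (16.8% of all tested genes) and 86 higher in rev than at 4h (7.93%). The 4 not called were Gne, Slc16a14, Bmp7 and Snx29. Every 4h library was below every 0h library in 77 members (10.8% of all tested genes), and every rev library was above every 4h library in 62 (6.48%). The restored part of the fall had a median of 0.856 and exceeded 1 in 18 members. In 5 of these (Fgf4, Rgma, Lefty1, Gadd45b and Ryr1) every rev library lay above every 0h library (9.59% of all tested genes). Just inside the restoration threshold stood Chac1, Celsr3 and Elobl (0.704, 0.704 and 0.707) and just outside Sema6c, Rnf213 and Npr3 (0.697, 0.691 and 0.689). Flad1, Syne4 and Alox12 had falls of -0.60, -0.61 and -0.61, just inside, and Dleu2, Kctd15 and Ap3b2 of -0.60, -0.59 and -0.59, just outside. At 0h Kcp, Gjb5 and Naa80 had 5.02, 5.06 and 5.06 CPM, and Tnni3, Ndrg1 and Thra, which met the other conditions, had 4.96, 4.90 and 4.54 CPM.

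The share of counts in the 8 abundant models moved with rev. In both clones it was higher in rev (55.1% and 62.2% in clone 4, 65.9% and 80.4% in clone 8) than in the same clone's 4h libraries of the same number (42.0% and 51.7%, 60.4% and 62.4%). With that share added to the model as a covariate, which was decided once the data had been seen, 61 members fell at 2h (9.80% of all tested genes), 88 were called lower at 4h (14.8%) and 66 higher in rev than at 4h (4.72%). The 4h and rev calls rest on the contrasts that chose the members, so they are descriptions and not a test. With libraries scaled by size alone, 17 members fell at 2h, where 1.10% of all tested genes did, and the median rev change from 4h was 0.36 for the members and -0.41 for all tested genes (0.78 and 0.01 under TMM). Rises in rev are thus rises relative to the median gene. Without the library at 80.4% the rule found 92 genes, 70 of them members, and 65 members fell at 2h (10.2% of all tested genes).

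The rule used the 0h, 4h and rev libraries of both clones together, so the signs within each clone are a description and largely fixed by the choice. All 90 members had lower means at 4h than at 0h and higher means in rev than at 4h in each clone, and 86 had lower means at 2h in both. The edgeR interaction test, which also rests on values the choice used and does not show that the clones act alike, called a difference in the 4h change between the clones in 0 members (0.311% of all tested genes), with 17 at an unadjusted p under 0.05 (11.6% of all). For the rev change it was 0 (0.00819%) and 7 (6.03%), and DESeq2 also called 0 in both. Levels, in contrast, differed between the clones in 39 members, 15 lower and 24 higher in clone 8, beside 29.1% of all tested genes (13.7% lower, 15.4% higher). Tubb3 (log2 difference clone 8 minus clone 4 of -1.04, SE 0.10, edgeR adjusted p 1.3e-10) and Tnfrsf19, a receptor of the TNF family (-0.79, SE 0.09, adjusted p 6.9e-09) were among those lower in clone 8. Trim2, a ubiquitin ligase (0.57, SE 0.08, adjusted p 4.0e-07), and Fgf4 (0.38, SE 0.06, adjusted p 6.9e-06) were higher.

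Choosing genes in 1 clone and testing them in the other gives a measure that the choice did not use. The same rule applied to the 4 groups of clone 4 alone picked 129 genes, of which 50 are members. In clone 8, 60 of these were lower at 4h than at 0h (9.28% of all tested genes), 50 were lower at 2h (7.83%) and 39 were higher in rev than at 4h (2.41%), with 30 passing both the 4h and the rev test. Chosen in clone 8, 133 genes (51 members) gave 77 lower at 4h (10.2%), 27 lower at 2h (2.34%) and 55 higher in rev (4.76%) in clone 4, with 44 passing both. These counts depended on single libraries, and leaving one out leaves that clone with 1 sample in the group. Shares of all tested genes within a clone were not recorded for these reduced fits. The drops can therefore not be compared with those of other genes. For the genes chosen in clone 4, the 60 became 35, 30 and 39 without clone 8's 0h replicate 2, 4h replicate 1 and 4h replicate 2. The 50 became 18, 30 and 27 without its 0h replicate 2, 2h replicate 1 and 2h replicate 2, and the 39 became 17 and 15 without its 4h replicate 1 and rev replicate 1. For those chosen in clone 8, the 77 became 51 without clone 4's 0h replicate 2, the 27 became 16 and 9 without its 0h replicate 2 and 2h replicate 1, and the 55 became 31 and 25 without its 4h replicate 1 and rev replicate 1. With libraries scaled by size alone the counts were 29, 7 and 2 in clone 8 and 17, 4 and 10 in clone 4 (lower at 4h, lower at 2h, higher in rev). Calls over all tested genes dropped too under that scaling, to 2.68%, 1.10% and 0.467% with both clones together, from 16.8%, 9.68% and 7.93%. Shares within each clone were not recorded for it. The 2 lists share 29 genes, which met the whole rule in each clone. The median 4h change shrank from -0.76 in clone 4, which chose, to -0.48 in clone 8, and from -0.73 in clone 8 to -0.62 in clone 4. The median rise from 4h to rev went from 0.69 to 0.49 and from 0.70 to 0.42. The members' own values, which came from both clones, include the same kind of excess, of a size that was not estimated.

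**Figure D4:**
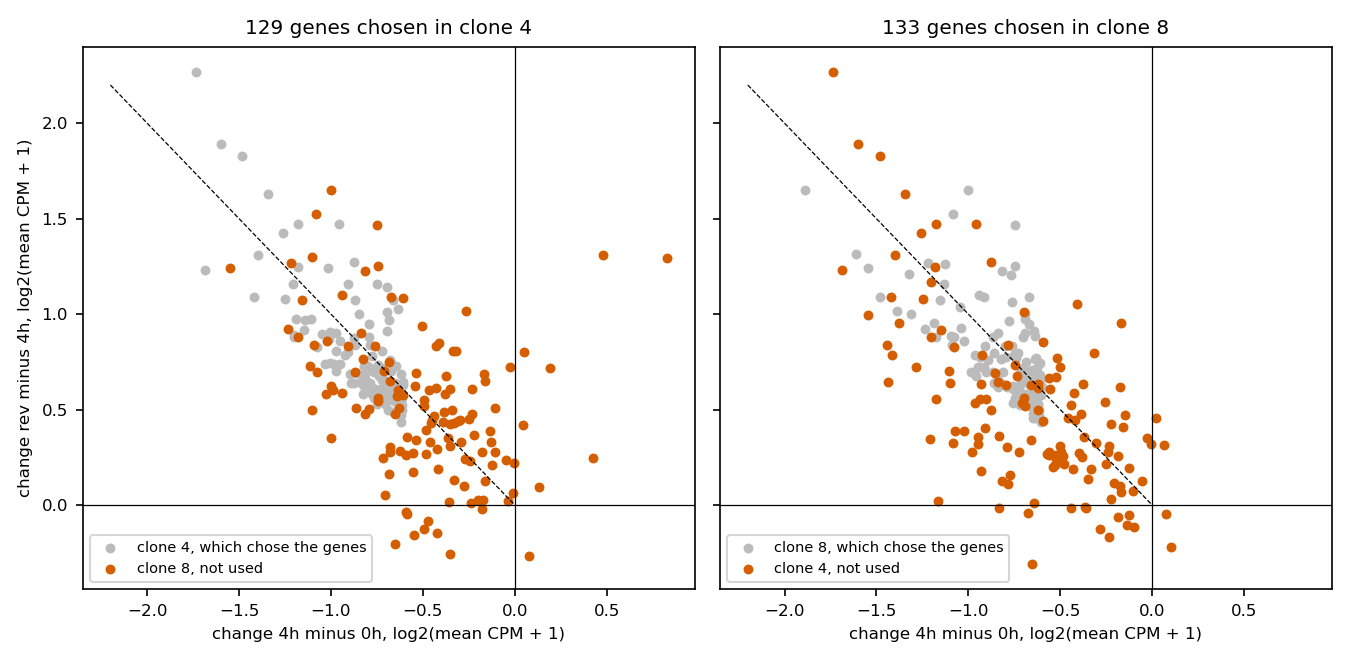
Change from 0h to 4h (x axis) and from 4h to rev (y axis), both on the log2(mean CPM + 1) scale, for the 129 genes chosen in clone 4 (left) and the 133 chosen in clone 8 (right), in the clone that chose them (grey) and in the clone not used (orange); the dashed line is full restoration. By sign alone, without a test, 121 of 129 and 129 of 133 genes lay below 0 on the x axis in the clone not used (52.2% and 50.2% of all tested genes), and 119 in each panel lay above 0 on the y axis (50% and 51.8%).

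The members were shorter genes than the repressed genes that stayed low. Their median span in GENCODE M21 was 22.4 kb with a median of 8 exons in the transcript with the most exons, against 50.8 kb and 12 exons for the 140 genes not restored, 31.7 kb for the 208 between and 26.3 kb for all genes of at least 5 CPM at 0h. Of the genes that fell, 25.4% of 67 with a span under 10 kb and 29.4% of 136 with 10 to 30 kb were restored, against 16.4% of 152 with 30 to 100 kb and 9.64% of 83 over 100 kb. The shares not restored ran the other way, at 22.4%, 22.8%, 32.2% and 54.2%. Across the 438 genes, which are not independent replicates and share libraries, span and restoration had a Spearman correlation of -0.25, and span and the share of the fall in place at 2h one of -0.38. For exon length and restoration it was -0.11, and for the 0h level 0.06. With the rule applied to clone 4 alone the medians were 23.5 and 34.0 kb, and to clone 8 alone 24.6 and 42.7 kb. Leaving out each library in turn gave 20.4 to 24.5 kb for restored and 40.0 to 51.9 kb for not restored genes. The 8 members over 100 kb, led by Snx29 (433 kb) and Prdm16 (321 kb), are exceptions, and the span of Fgf4 is that of its longer model.

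**Figure D5:**
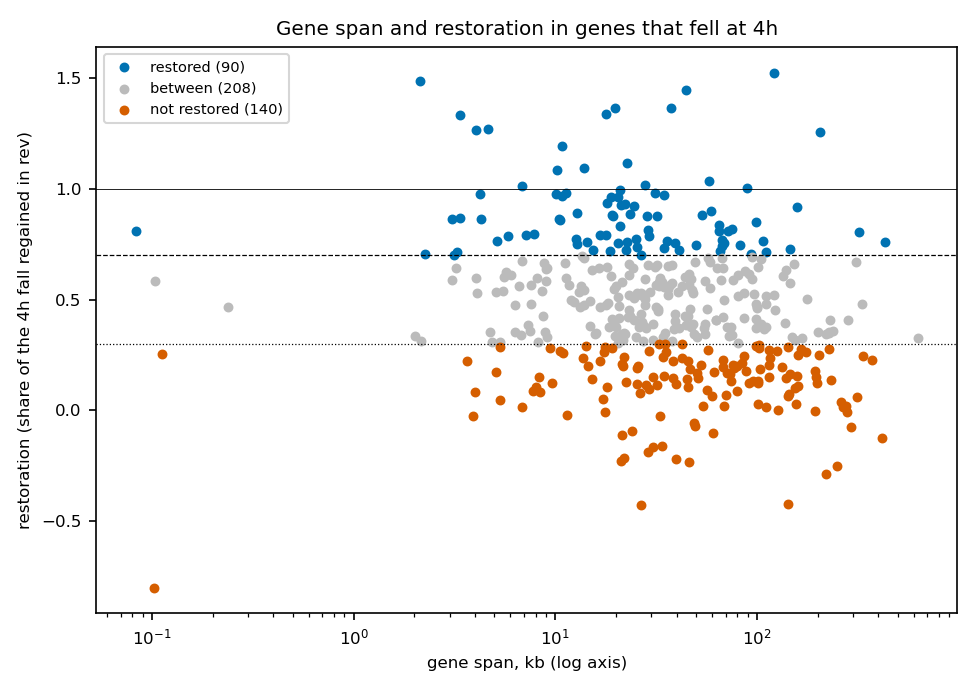
Restoration, the share of the 4h fall regained in rev (y axis), against gene span in kb (x axis, log scale) for the 438 genes of at least 5 CPM at 0h that fell by at least 0.6. The dashed line at 0.7 and the dotted line at 0.3 separate the 90 members (blue), the 208 between (grey) and the 140 not restored (orange); points over 100 kb lie mostly under the dotted line (45 of 83).

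Members were also unevenly spread over chromosomes. Chromosome 7 held 18 (20% of members, against 7.43% of genes with at least 5 CPM at 0h), among them Fgf4, Rgma, Atg16l2, Ryr1, Trpm4 and Ppfia3, and chromosome 4 held 12 (13.3% against 6.81%). On chromosome 7, 37.5% of the genes that fell were restored, compared with 20.5% over all chromosomes. Trpm4 and Ppfia3, a scaffold protein of presynaptic sites, lie 5.34 kb apart. No test was made of this distribution, which was noticed in the data. Exons of 33 members overlap those of another gene (10 on the same strand, 26 on the opposite strand), among them Atg16l2, Pnpla3, Prdm16, Ryr1 and Sirt3, and since the labels do not say that the libraries or the counting recorded strand, their counts are uncertain.

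Of the pathway lists, that of Nodal and BMP signalling held 4 members (Lefty1, Smad3, Bmp7 and Rgma) among 23 tested genes, of which 6 were lower and 9 higher at 4h than at 0h, beside 16.8% lower and 17.2% higher of all tested genes. The other lower genes were Acvr1b, a Nodal receptor, which stood at 22.6, 18.98 and 16.02 CPM at 0h, 4h and rev, and Smad1, a BMP transducer, at 19.8, 16.5 and 17.8 CPM. The naive pluripotency list held 2 members (Fgf4 and Spic) among 40 tested genes, of which 6 (15%) were lower, near the 16.8% of all tested genes, and 22 (55%) higher, against 17.2%. Its other lower genes, Klf4, Tfcp2l1, Dppa3 and Jam2, fell by less than the rule asks (log2 fold changes at 4h from -0.54 to -0.27). In a list of cell cycle brakes and p53 or FoxO targets, 12 of 26 were lower and 4 higher at 4h (16.8% and 17.2% of all tested genes), including the members Gadd45b and Sesn1, a stress-induced inhibitor of growth signalling that had 16.2 to 20.4 CPM at 0h, 8.16 to 10.7 at 4h and 13.1 to 22.6 in rev. In the same list Cdkn1b, a CDK inhibitor, and Txnip, an inhibitor of glucose uptake, fell and stayed low, with mean CPM of 29.7 and 35.9 at 0h, 17.3 and 21.0 at 4h, and 18.997 and 20.7 in rev. The formative and primed epiblast, primitive endoderm, LIF and STAT3, Wnt, and repressor lists held 0 members, and the list of RAS-ERK and PI3K signalling held 1 (Sesn1). The lists were chosen with results of these data known, so their counts are not independent evidence of a direction.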

How the data were processed

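RNA of 16 samples in 4 groups of 4 was depleted of ribosomal RNA and sequenced with a NEBNext Ultra II kit, per the labels' protocols. The authors deposited raw read counts per gene, as the whole numbers and unequal library totals of the file show; bcl2fastq 2.19.1, STAR 2.5.3a and the build mm10 are named in the submitters' processing notes, and the counting tool, annotation and strand setting are not given in the sources used here. Of 52636 identifiers, 52489 matched GENCODE M21.

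The count model was edgeR 4.0.16 (R 4.3.3, limma 3.58.1), with filterByExpr by group, TMM factors (0.463 to 1.47), and a two-sided quasi-likelihood test on all 16 libraries with group and clone, or with 8 group and clone cells for values within clones and interactions. The p-values were adjusted (Benjamini-Hochberg, 0.05) over all 12215 genes. The biological coefficient of variation was 0.0795. The smallest count of a member in any library was 2. The pipeline was tested on simulated data.

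The members and the gene lists were chosen with earlier results of these data known. Genes were named from the largest falls, the highest levels, the lists, the threshold edges, the largest and smallest 2h changes and the clearest clone effects, and the others after their values were seen. Genes left out by the selection rule, and some members by name, are not reported here. Alternatives were RLE factors, library size alone, other filters, a replicate block, no clone term, only the groups compared, a stricter adjusted p, DESeq2 1.42.0, other limits and pseudocounts of the rule, and each library left out in turn. After the data had been seen, the 8 most abundant models were also removed, or their share was used as a covariate.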

Additional observations from a re-analysis of the deposited data

Results flagged for a closer look

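Dixon's test was applied to the 4 libraries of each group for 40 named members (160 sets of 4), and in 5 of them 1 library stood apart from the other 3, where chance gives about 1 in 20. Rab11fip1 had 60.3 CPM in the 0h library of clone 8 replicate 1 against 69.8 to 70.6 in the others. In the same library Tiam2 had 9.49 CPM against 7.06 to 7.27. Gadd45b had 19.1 CPM in the rev library of clone 4 replicate 1 against 15.7 to 16.2. Smad3 had 17.3 CPM in the 2h library of clone 8 replicate 2 against 12 to 12.7. Trpm4 had 9.30 CPM in the 4h library of clone 8 replicate 1 against 6.31 to 6.78.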

How the results depend on the processing

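No called value of a member changed sign among the alternatives, while the median of all tested genes did with libraries scaled by size alone (from 0.01 to -0.41 for 4h to rev, and from -0.02 to 0.09 for 0h to 4h). Percentages in parentheses are shares of all tested genes. Under that scaling the rule found 14 genes, 17 members fell at 2h (1.10%) and 0 from 2h to 4h (0.0982%), and 15 differed between clones (17.4%). The genes chosen in clone 4 gave 29, 2 and 7 calls in clone 8 (lower at 4h, higher in rev, lower at 2h), and those chosen in clone 8 gave 17, 10 and 4 in clone 4. For these counts no share of all tested genes within the clone was recorded. As described contrasts, 37 members were called lower at 4h (2.68%) and 16 higher in rev (0.467%). Without the clone term 40 members fell at 2h (3.78%) and 7 from 2h to 4h (0.737%). At an adjusted p under 0.01 the counts were 14 from 2h to 4h (1.46%) and 22 between clones (19.2%). Genes chosen in clone 4 gave 25 at 2h in clone 8, where the share of all tested genes was not recorded (4.62% with both clones together). DESeq2 gave 54 members lower at 2h (7%). For the chosen genes it gave 38 lower at 4h and 20 lower at 2h in clone 8, where it called 458 and 230 of all 12215 tested genes. In clone 4 it gave 31 higher in rev, where it called 236 of all. The rule found 22 genes with a fall of at least 1, 188 with a restoration of at least 0.5, 18 with at least 1, 49 at a 0h mean of at least 10 CPM, and 208 with the 8 abundant models removed, where every CPM is higher by construction.

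Leaving out each library in turn, the rule found 85 to 122 genes, of which 66 to 90 were members. Members that fell numbered 51 to 65 at 2h (6.04% to 10.2% of all tested genes) and 17 to 25 from 2h to 4h (2.09% to 3.66%). None rose at 2h, and 29 to 37 differed between clones (25% to 30%). Interaction calls were 0 to 2 at 4h (2 without 0h clone 4 replicate 2) and 0 in rev. Genes chosen in clone 4 gave 30 to 61, 15 to 41 and 18 to 52 calls in clone 8, the lowest without 4h clone 8 replicate 1, rev clone 8 replicate 1 and 0h clone 8 replicate 2. Genes chosen in clone 8 gave 51 to 79, 25 to 56 and 9 to 29 calls in clone 4, the lowest without 0h clone 4 replicate 2, rev clone 4 replicate 1 and 2h clone 4 replicate 1. A left-out library can leave a clone with 1 sample in a group, which is then assumed to vary like the others.

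With the replicate block, which pairs samples of the same clone and number, 59 members fell at 2h (9.31%), all among the 64 without it. Residuals of same-numbered samples correlated with a mean r of 0.00577 (-0.230 to 0.139 over 12 pairs, 8646 genes). This cannot show whether same-numbered samples were handled together. Single calls at 2h that were lost in several settings included those of Tubb3, Klf8, Gal3st3 and Snord32a; Snord32a rested on 1 library (0h, clone 4 replicate 1), without which its log2 fold change was -0.51. The cause of these shifts was not tested. Depth limits members under 10 CPM most, where 3 counts can be worth 1.35 CPM.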
